A study of Rattus norvegicus with 24 samples.

Results

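Intermittent hypoxia (IH) was compared with normoxia (Nx) in brain microglia of rat pups that had received vehicle and no LPS, with males and females pooled. The samples were taken by their labels for oxygen, sex and injection: 6 IH samples (3 male, 3 female) and 6 Nx samples (3 male, 3 female), which are 12 of the 24 samples of the series. All pups were Sprague-Dawley, a standard outbred rat, and carried no engineered allele. From postnatal day 1 they stayed with their dams for 8 days, 8 h per day. The air was either room air (21% O2) or alternated between 2-min episodes of hypoxia (10.5% O2) and of normoxia (21% O2). On postnatal day 9, 16 h after the last exposure, each received vehicle by intraperitoneal injection, given as saline in the labels and as HBSS in the methods. The methods give 3 h between injection and collection. Cells bearing CD11b/c, an integrin of microglia and of other myeloid cells, were then taken from the whole brain without cerebellum and olfactory bulbs. They were taken by magnetic beads, so infiltrating myeloid cells were not separated from microglia. The other 12 samples of the series had the same sexes and exposures and received LPS in place of vehicle.

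Microglia are the brain's own macrophages, which survey the tissue, clear dying cells and release cytokines. Oxygen sensing in these cells, as in others, runs largely through the hypoxia-inducible factors, which bind a short DNA core, ACGTG or GCGTG, when oxygen is low. Inflammatory stimuli such as LPS act through NF-κB, which drives cytokines, chemokines, adhesion molecules and prostaglandin synthesis, and through interferons. Intermittent, as opposed to sustained, hypoxia is used as a model of the repeated desaturations of sleep-disordered breathing and of apnea of prematurity.

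The files held counts for 32754 Ensembl gene identifiers, of which 12860 had a CPM above 1 (counts scaled to library size) in at least 3 of the 24 samples and were tested. The identifiers were not paired with symbols, and 21 could be named through pairs printed with the publication. Defining markers of microglia, such as the genes for its purinergic and fractalkine receptors, could therefore not be looked up, and the labelled cell type was not checked against them. Of the markers listed for other cells, only Cd7, of lymphoid cells, and Mcpt1l1, a mast cell protease, had an identifier. Total counts on genes ranged from 6624453 to 8169668 in the IH samples and from 6842108 to 8055158 in the Nx samples. Male Nx 2 stood apart by its reads aligned to more than 1 place, which were 23.4% of its alignments against 11.7% to 15.8% in the other samples. None of 5 measures of the libraries, among them depth, reads outside genes and the share of the 10 top genes, differed between IH and Nx by a two-sided exact permutation test within sex (lowest p = 0.24, adjusted p = 0.93). The labels name separate samples but not litters, so the p-values measure the spread between these samples.

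To show where the genes at issue are read from, the 250 bases before the transcription start of the 3 named genes that passed an unadjusted p of 0.05 are given from RefSeq, build GRCr8, written 5′ to 3′ along the gene. These are Il6 (chr4:5894576-5894825, minus strand), Cxcl10 (chr14:15988816-15989065, plus strand) and Gpr15l, in RefSeq Gpr15lg (chr16:12896135-12896384, minus strand). Capitals mark matches on either strand to the hypoxia core, ACGTG, or GCGTG.
Il6: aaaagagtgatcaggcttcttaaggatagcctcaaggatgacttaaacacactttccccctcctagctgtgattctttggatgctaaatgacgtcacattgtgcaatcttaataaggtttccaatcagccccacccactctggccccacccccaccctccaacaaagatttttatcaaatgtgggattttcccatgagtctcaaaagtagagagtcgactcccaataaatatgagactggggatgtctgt
Cxcl10: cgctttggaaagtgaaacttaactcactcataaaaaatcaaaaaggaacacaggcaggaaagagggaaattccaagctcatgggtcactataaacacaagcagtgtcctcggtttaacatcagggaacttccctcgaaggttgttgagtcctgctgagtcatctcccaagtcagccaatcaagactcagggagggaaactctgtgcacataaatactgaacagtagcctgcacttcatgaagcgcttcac
Gpr15l: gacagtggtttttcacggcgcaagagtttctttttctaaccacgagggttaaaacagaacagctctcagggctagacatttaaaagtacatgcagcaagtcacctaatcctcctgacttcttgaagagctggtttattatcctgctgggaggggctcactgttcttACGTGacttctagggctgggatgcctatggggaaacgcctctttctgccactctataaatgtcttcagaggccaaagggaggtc
Among the 16 named genes matched to a promoter, 2 of them by an older name, the core, as ACGTG or GCGTG on either strand, was present in 8, against 36.7% of all 33469 promoters of the same length. These letters were present in the window of Gpr15l and not in those of Il6 and Cxcl10.

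No gene was called higher or lower with IH. With sex as a covariate, edgeR's quasi-likelihood test gave 0 of 12860 genes at an FDR below 0.05 (0%), and the smallest adjusted p was 1. At an unadjusted p below 0.05 there were 145 genes (1.13%), where 643 are 5% of the genes tested. That shortfall is not evidence of no effect, and its cause was not tested. The intervals given below rest on the same standard errors and may be wider than their nominal level. The likelihood ratio test, the exact test, DESeq2 and limma-voom also called 0 genes, with 155, 120, 126 and 133 at an unadjusted p below 0.05. Without Male Nx 2 the counts were 0 and 203. Of the 145 genes, 39 were higher with IH (0.303% of the genes tested) and 106 were lower (0.824%). The split varied with single samples, from 46 against 223 without Male Nx 3 to 90 against 113 without Male Nx 2.

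The size of the differences was small for most genes. The median log2 fold change was -0.03, the median of its absolute value 0.07 and its 90th percentile 0.34, against a median standard error of 0.17. A further fit, chosen after seeing the data, took the first component of variation within groups as a covariate. It gave 342 genes (2.66%) at an unadjusted p below 0.05, 174 higher and 168 lower with IH. In that fit 0 genes were called and 11305 excluded 2-fold. The plot of fold change against expression level shows the cloud narrowing towards highly expressed genes.

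**Figure D1:**
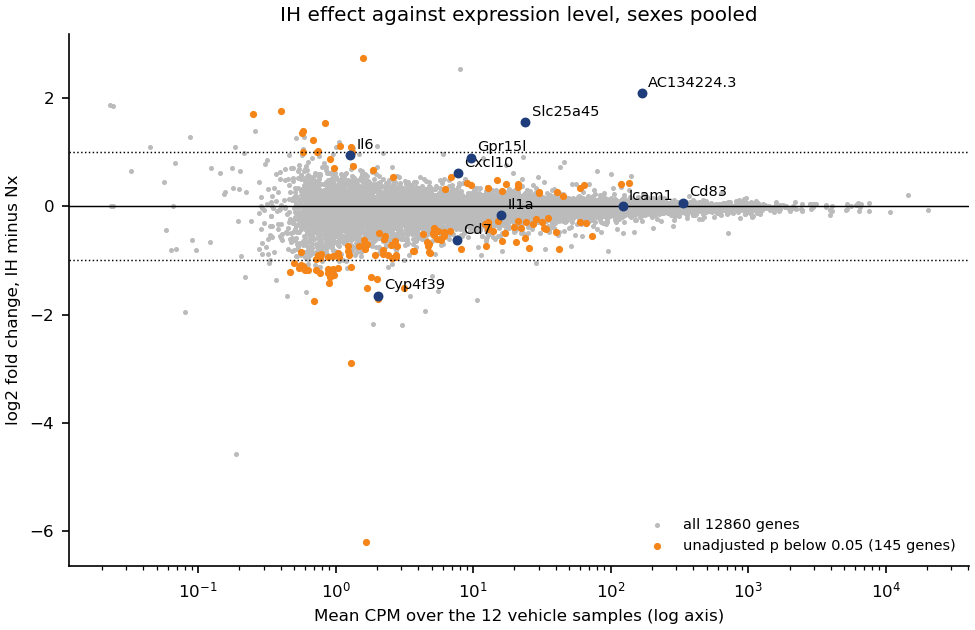
Log2 fold change (IH minus Nx, sexes pooled) of each of the 12860 genes against its mean CPM over the 12 vehicle samples on a log axis, with the 145 genes at an unadjusted p below 0.05 in orange, 10 named genes in blue and dotted lines at 2-fold. The spread narrows with expression, and most genes beyond the dotted lines have a mean CPM below 10.

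A missing call is not evidence of no change, so the fold changes that 6 samples against 6 could exclude were computed from the 95% interval of each gene. For 10867 genes (84.5%) the whole interval lay within 2-fold in either direction, and for 8118 genes (63.1%) it lay within 1.5-fold. The median gene excluded changes beyond 1.37-fold, and the gene at the 90th percentile only those beyond 2.29-fold. With intervals widened by Bonferroni to hold for all genes at once, 3727 genes (29.0%) excluded 2-fold and the median gene excluded changes beyond 2.56-fold. For a gene to be called alone against all others by that correction, the median change needed was 2.41-fold, and 2.07-fold for genes with a mean CPM of 10 to 100.

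What could be excluded depended on expression level. Among the 1997 genes with a mean CPM of 100 or more, 99.3% excluded 2-fold and 96.1% excluded 1.5-fold. Among the 6535 genes from 10 to 100 CPM these shares were 97.5% and 84.1%. Moderately and highly expressed genes thus left little room for a 2-fold effect in either direction at the level of a single interval. Among the 3440 genes from 1 to 10 CPM, 69.4% excluded 2-fold and 20.5% excluded 1.5-fold. Of the 888 genes below 1 CPM, 13.9% excluded 2-fold and 0% excluded 1.5-fold, and the median limit was 2.67-fold.

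**Figure D2:**
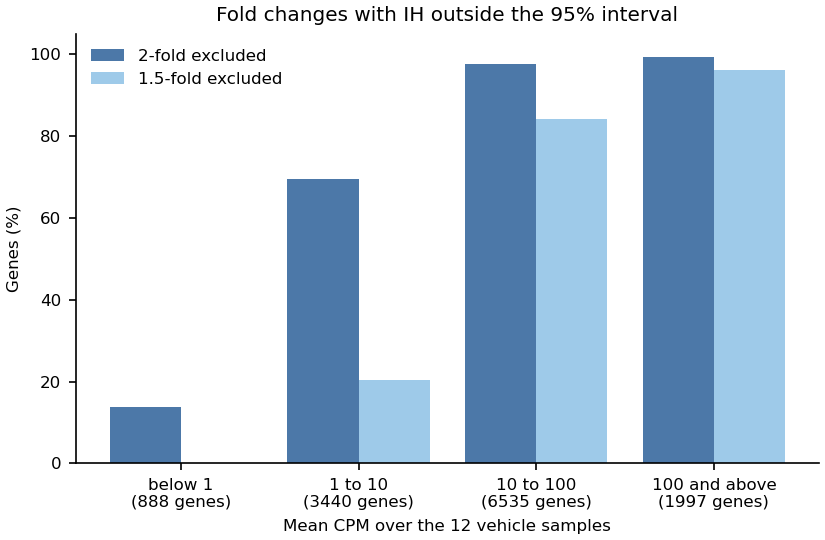
Percentage of genes whose 95% interval for the IH effect excluded a 2-fold (dark) or 1.5-fold (light) change in either direction, by mean CPM over the 12 vehicle samples. The share excluding 2-fold rises from 13.9% below 1 CPM to 99.3% at 100 CPM and above.

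Among the named genes, the cytokine Il6 (ENSRNOG00000010278) was the one whose IH and Nx samples did not overlap within either sex. In males the Nx samples had 0.758, 0.749 and 1.33 CPM and the IH samples 1.83, 2.46 and 1.42 CPM. In females the Nx samples had 1.02, 0.282 and 1.02 CPM and the IH samples 1.87, 1.43 and 1.16 CPM. The lowest IH sample was above the highest Nx sample in each sex, although Female IH 3 lay below Male Nx 3. Male Nx 3 and Male IH 3 had 11 counts each, so between these samples the separation rests on the scaling of the libraries. These levels rest on 2 to 11 counts per Nx sample and 9 to 20 counts per IH sample. The log2 fold change was 0.95 ± 0.32 (SE), with a 95% interval from 0.27 to 1.67, and was 0.97 in males and 0.94 in females. The unadjusted p was 0.0103 and the adjusted p by edgeR was 1, so Il6 was not called. Separation of IH above Nx within both sexes was seen for 6 genes (0.0467%), and of IH below Nx for 7 genes (0.0544%). Of the 400 labellings of IH and Nx within sex, a single one separates a gene in a given direction. Neither share is thus above that expected from random labels.

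The interferon-induced chemokine Cxcl10 (ENSRNOG00000022256) had 4.59 to 9.13 CPM (median 5.63) in Nx and 4.0 to 14.5 CPM (median 9.05) in IH. The groups overlapped, with Female IH 2 below all 6 Nx samples and Female IH 3 above all of them. Its log2 fold change was 0.62 ± 0.26 (SE), with a 95% interval from 0.05 to 1.19 (unadjusted p = 0.0358, edgeR adjusted p = 1). Without Female IH 3 the log2 fold change was 0.37 with an unadjusted p of 0.125, and without Female IH 2 it was 0.76 with an unadjusted p of 0.00501.

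Gpr15l (ENSRNOG00000043342), a chemokine-like ligand of the receptor GPR15, was higher in every IH male than in every Nx male, whereas the female samples overlapped. In sex-split comparisons of these same libraries, the study called Gpr15l and AC134224.3 higher in males and Cyp4f39 lower in females at an FDR below 0.05. None of these calls recurred in the fits used here. The following values are a description and no independent evidence. In males the Nx samples had 8.08, 7.94 and 5.69 CPM and the IH samples 18.2, 22.1 and 22.8 CPM. In females the Nx samples had 5.26, 5.64 and 3.95 CPM and the IH samples 7.35, 4.28 and 5.04 CPM. All 3 male IH samples were above the other 9 samples, which overlapped. The pooled log2 fold change was 0.90, with a 95% interval from 0.34 to 1.46, and was 1.53 in males alone (edgeR adjusted p = 0.732) and 0.19 in females alone. The difference between the sexes was 1.37 ± 0.36 (SE) (unadjusted p = 0.00247, edgeR adjusted p = 1).

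Across all genes, the sex by IH interaction gave 0 calls at an FDR below 0.05 by edgeR's quasi-likelihood test and 122 genes at an unadjusted p below 0.05 (0.949%). DESeq2 and limma-voom also gave 0 calls, with 110 and 120 genes, and the likelihood ratio test gave 1 call and 126 genes. In males alone 149 genes (1.16%) and in females alone 113 genes (0.879%) had an unadjusted p below 0.05, and 2-fold was excluded for 9401 (73.1%) and 8527 genes (66.3%). A 2-fold difference between the sexes in the IH effect was excluded for 6809 genes. Pooling the sexes thus rests on a comparison that is less precise than the pooled effect itself.

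**Figure D3:**
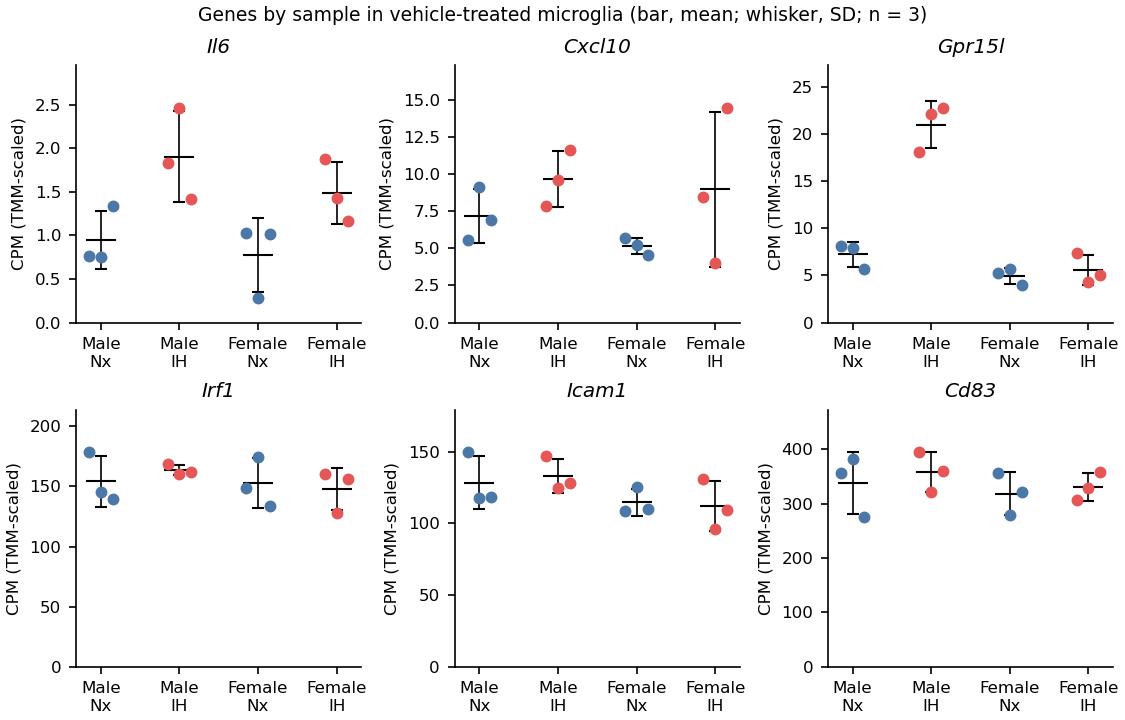
TMM-scaled CPM of 6 genes in each of the 12 vehicle samples (points; blue Nx, red IH), with the mean (bar) and SD (whisker) of the 3 samples of each group. Il6 is higher in IH within each sex, Gpr15l is higher only in the 3 male IH samples, and Irf1, Icam1 and Cd83 overlap between IH and Nx.

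Of the named genes, 12 are NF-κB or interferon targets, and the intervals for the IH effect were narrow for some of them and wide for others. These 12 were selected by the study as lower with IH in LPS-treated females, that is on other samples of the series. Of the 12, 5 (Csf3, Sele, Cxcl9, Cxcl1 and Ptgs2) passed the filter on low values only through the LPS samples, so nothing is read from their change with LPS. Of the 12, 2 had an unadjusted p below 0.05 in the higher direction (Il6 and Cxcl10, read against 0.303% of all genes) and 0 in the lower direction. Over the 9 members with more than 3 counts in a group, 5 were higher and 4 lower with IH. Their median log2 fold change was 0.01, beside -0.03 for all genes.

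The transcription factor Irf1, the adhesion molecule Icam1 and the activation marker Cd83 excluded 1.5-fold changes. Irf1 had 134 to 178 CPM in Nx (median 147) and 128 to 168 CPM in IH (median 160), a log2 fold change of 0.02 with a 95% interval from -0.19 to 0.23. Icam1 had 109 to 150 CPM in Nx (median 118) and 96.4 to 147 CPM in IH (median 126), a log2 fold change of 0.01 with an interval from -0.21 to 0.22. Cd83 had 275 to 383 CPM in Nx (median 339) and 307 to 394 CPM in IH (median 343), a log2 fold change of 0.07 with an interval from -0.15 to 0.28. In all 3 the IH and Nx ranges overlapped over most of their length. Birc3, an inhibitor of apoptosis, excluded 2-fold, with a log2 fold change of -0.11 and an interval from -0.91 to 0.68.

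For the other members no such limit could be set. Il1a, an interleukin-1 cytokine, ranged from 6.34 to 34.3 CPM in Nx and from 5.43 to 25.1 CPM in IH. Its log2 fold change was -0.16, with an interval from -1.16 to 0.84. The spread of Il1a was as wide within each oxygen group as between them. Ptgs2, which encodes cyclooxygenase-2, had a log2 fold change of -0.22 with an interval from -1.70 to 1.25. Cxcl1, a neutrophil chemokine, had -1.04 with an interval from -3.00 to 0.80, on 20 counts in the Nx and 9 in the IH samples. With one sample left out, Cxcl1 ranged from -1.80 without Male IH 1 to -0.66 without Male IH 2. Csf3 had 0 counts in all 12 samples, where 3 counts in a sample would be 0.363 to 0.449 CPM. Sele had 1 count in each oxygen group and Cxcl9 had 2 counts in IH and 0 in Nx, so no fold change is given for these 3 genes.

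The response to LPS in Nx pups gives a scale for these limits. LPS against vehicle in Nx called 1768 genes (13.7%), and the 7 targets that also passed the filter in vehicle samples alone rose by 1.73 to 8.41 on the log2 scale. This comparison shares the Nx vehicle samples with the IH comparison. For each of these 7 members the interval for the IH effect ended below its LPS change. The values were 1.19 against 8.41 for Cxcl10, 0.23 against 2.75 for Irf1, and 1.67 against 2.57 ± 0.35 (SE) for Il6. All 7 were called for LPS, so this outcome was likely beforehand and gives a scale, not a test.

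The LPS-treated samples give the IH effect in animals that the vehicle comparison did not use. There too edgeR's quasi-likelihood test called 0 genes, with 238 at an unadjusted p below 0.05 (1.85%). All 12 targets had negative fold changes in the LPS samples, the direction by which the study chose them, and 1 of them, Il1a, had an unadjusted p below 0.05. Its log2 fold change there was -1.07, with an adjusted p of 1 by edgeR's quasi-likelihood test. Il6 was higher with IH in vehicle samples and was -0.57 in LPS samples. The study chose Il6 and Cxcl10 as lower with IH in LPS females, and both stood out here as higher in vehicle samples. Their differences between the 2 effects were thus selected from both sides and are a description, not an independent test. The difference of the 2 effects on Il6 was -1.53 ± 0.45 (SE), with an unadjusted p of 0.0024 and an edgeR adjusted p of 1. For Cxcl10 the difference was -1.90 ± 0.92 (SE) (unadjusted p = 0.0506, edgeR adjusted p = 1). Across all genes this oxygen by injection difference gave 0 calls by edgeR's quasi-likelihood test and 181 genes at an unadjusted p below 0.05 (1.41%). Over the 12860 genes, which are not independent replicates, the IH fold changes in vehicle and LPS samples had a Pearson r of 0.07 and a Spearman rho of -0.0038.

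**Figure D4:**
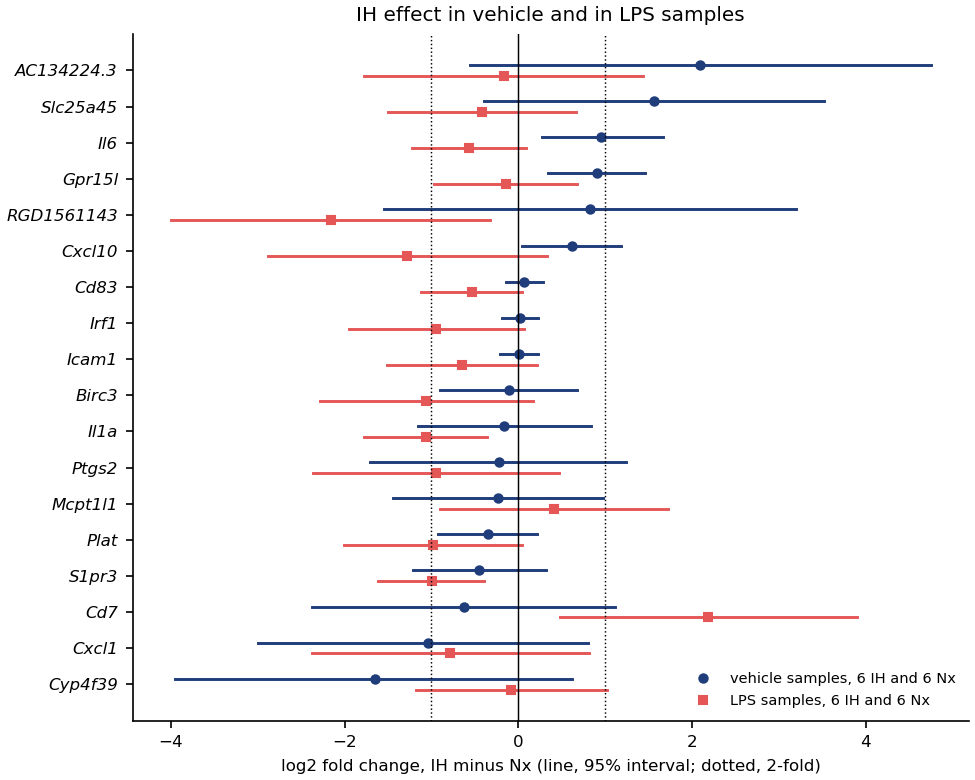
Log2 fold change (IH minus Nx, sexes pooled) with its 95% interval for the 18 named genes above 3 counts in a group, in vehicle samples (blue circles, 6 IH and 6 Nx) and LPS samples (red squares, 6 IH and 6 Nx), with dotted lines at 2-fold. In vehicle samples the intervals of Il6, Gpr15l and Cxcl10 lie above 0, those of Irf1, Icam1 and Cd83 stay near 0, and those of AC134224.3, RGD1561143 and Cyp4f39 extend past 2-fold.

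Some named genes with wide intervals were high in some samples and low in others within both oxygen groups. AC134224.3 (ENSRNOG00000062158), a gene known here by a clone name, had 175 to 571 CPM in Female Nx 1 and 2, Female IH 1 and 2 and Male IH 2 and 3, and 8.79 to 20.8 CPM in the other 6 samples. Slc25a45, of the mitochondrial carrier family, had 34.4 to 61.9 CPM in the same 6 samples and 2.18 to 4.04 CPM in the other 6. Both genes thus split the 12 samples in the same way, with 2 of the 6 high samples in Nx and 4 in IH. The pooled log2 fold changes were 2.1 for AC134224.3, with an interval from -0.56 to 4.75, and 1.56 for Slc25a45, with an interval from -0.39 to 3.52. In males alone they were 4.23 and 3.38, and in females alone 0.16 and 0.10. Cyp4f39 (ENSRNOG00000029478), a cytochrome P450 of family 4, had 2.42 to 6.90 CPM in 5 Nx samples and 0 in Male Nx 2. In IH it had 0 to 0.286 CPM in 5 samples and 5.29 CPM in Male IH 2. Its log2 fold change was -1.65, with an interval from -3.96 to 0.62, and was 0.12 in males alone and -4.81 in females alone. Without Male IH 2 the pooled value was -4.38, with an unadjusted p of 0.000262. With all 12 samples, none of these 3 genes had an unadjusted p below 0.05 in the quasi-likelihood test with sex as covariate. With a mean for each of 4 groups in its place, the unadjusted p was 0.0375 for AC134224.3, 0.0409 for Slc25a45 and 0.0354 for Cyp4f39, and no adjusted p passed 0.05 in any setting.

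Plat, the tissue plasminogen activator, and S1pr3, a sphingosine-1-phosphate receptor, overlapped between IH and Nx. Plat had 13.1 to 33.5 CPM in Nx (median 15.3) and 8.02 to 31.1 CPM in IH (median 13.8), a log2 fold change of -0.35 with an interval from -0.93 to 0.22. S1pr3 had 2.42 to 6.14 CPM in Nx (median 4.45) and 1.29 to 6.05 CPM in IH (median 3.09), a log2 fold change of -0.45 with an interval from -1.22 to 0.32. The interval excluded 2-fold for Plat and not for S1pr3. With single samples left out, S1pr3 was -0.80 without Female IH 1 (unadjusted p = 0.021, edgeR adjusted p = 1), and Plat was -0.54 without Male IH 1 and -0.51 without Male Nx 3 (unadjusted p = 0.0623 and 0.0481, edgeR adjusted p = 1).

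Of genes without a symbol, the pair of lowest p per direction is given by identifier. ENSRNOG00000016371 was higher with IH, at 8.84, 10.3 and 10.3 CPM in Nx males against 15.5, 13.9 and 13.5 CPM in IH males, and at 17.2, 12.1 and 16.2 CPM in Nx females against 20.5, 23.6 and 18.1 CPM in IH females. It did not overlap within either sex, and its log2 fold change was 0.49 with an interval from 0.22 to 0.77 (unadjusted p = 0.00202, edgeR adjusted p = 1). ENSRNOG00000028910 had 0.485 to 1.53 CPM in Nx and 1.13 to 2.28 CPM in IH, with a log2 fold change of 1.01 (unadjusted p = 0.00547, edgeR adjusted p = 1). In the other direction, ENSRNOG00000015812 had 4.34 to 9.43 CPM in Nx and 2.14 to 5.77 CPM in IH, with a log2 fold change of -0.86 (unadjusted p = 0.00222, edgeR adjusted p = 1). The smallest p of all, 0.00105, belonged to ENSRNOG00000042547, which rested on a pair of samples. Female Nx 2 had 95 counts and Female Nx 3 had 50, Male Nx 2 and Male IH 1 had 1 count each, and the other 8 samples had 0.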

How the data were processed

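RNA from CD11b/c+ cells of 12 vehicle-treated and 12 LPS-treated pups was sequenced from stranded mRNA libraries, with 3 samples in each of 8 groups. The authors aligned reads to rn6 with TopHat2 2.1 (processing notes), counted them per gene on the stated strand with HTSeq, and deposited raw counts for each sample, without filtering or normalization. The annotation release is not given in the sources used here.

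Rows that name no gene were left out. As shares of all alignments listed, they were 14.7% to 21.2% outside genes, 0.265% to 0.435% ambiguous and 11.7% to 23.4% aligned to more than 1 place. Genes with CPM above 1 in at least 3 of 24 samples were kept, libraries were scaled by TMM, and oxygen was tested with sex as a covariate in the 12 vehicle samples by edgeR 4.0.16 (R 4.3.3; quasi-likelihood F test, Benjamini-Hochberg, FDR below 0.05). Printed CPM values are TMM-scaled. The 95% interval was the fold change ± the t quantile times the standard error from F; 7 genes had none and were counted as excluding nothing. The procedure was tested on simulated data. Interactions used the same test, the oxygen by injection term over all 24 samples. Alternatives were limma 3.58.1, DESeq2 1.42.0, other edgeR tests, scalings, filters and covariates, each sex alone and each sample left out. Closeness of replicates was checked by chi-square per degree of freedom, which was at least 7.88, so all were counted as separate samples.

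The groups, members and gene lists were chosen with earlier results of these data known. Genes to be named were the 6 smallest p with a symbol in each direction, a core list, the leading member of each list and 3 genes of the study. Since only 21 identifiers had a symbol, all 21 are named, and the lists for hypoxia targets, stress, cell cycle and cell types were not analysed here, apart from Cd7 and Mcpt1l1. Identifiers without a symbol are given for the 2 lowest p-values per direction. Promoters were from RefSeq (GRCr8), matched by symbol and searched for ACGTG and GCGTG; a search for an NF-κB pattern was also run and is not reported here. The labels give no batch. A floor of 3 counts per sample or per group marks what could not be measured, and covers counting error only.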

Additional observations from a re-analysis of the deposited data

Results flagged for a closer look

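In groups of 6 samples, the sample furthest from the others was compared with the whole range of the group, and 9 of 54 groups held a sample that stood apart, where chance gives about 1 in 20 for normally distributed values; these groups mix sexes and low counts, and their own chance rate was not measured. Male Nx 2 was high among the Nx samples in the share of reads aligned to more than 1 place (23.4%), in Cd7 (43.0 CPM) and in RGD1561143 (142 CPM). Male IH 2 was high among the IH samples in Cyp4f39 (5.29 CPM) and Cd7 (23.0 CPM). Female IH 2 was low among the IH samples in the share of ambiguous reads (0.289%) and in Irf1 (128 CPM) and high in Mcpt1l1 (65.8 CPM). Male IH 1 had the only count of the IH samples for ENSRNOG00000042547 (0.141 CPM). The groups of 6 hold both sexes, and the cause of these values was not tested.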

How the results depend on the processing

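The count of 0 calls for IH did not change under any of 12 samples left out or 16 other settings. The labels do not say whether equal replicate numbers pair the samples. Over all genes, deviations of same-numbered Nx and IH samples correlated at -0.44 to 0.24, which cannot settle this. With 6 pairs within sex, the SE fell from 0.81 to 0.26 for Cd7 and from 0.46 to 0.27 for Il1a. It rose from 0.26 to 0.30 for Gpr15l and from 1.06 to 1.28 for Cyp4f39. A block on the number gave 160 genes at an unadjusted p below 0.05, or 137 with 6 pairs within sex, and 0 calls each. That count, 145, was 255 with no filter on low counts, which tested 18796 genes, 109 to 269 with one sample left out (269 without Male Nx 3, 235 without Female Nx 1), and, in settings added after seeing the data, 342 and 460 with 1 and 2 within-group principal components as covariates; for these the cause was not tested. The share of higher genes was 26.9%, 50.9% with 1 component, 45.7% with 2 components, 39.6% in males alone, 21.2% in females alone, and 17.1% (without Male Nx 3) to 44.3% (without Male Nx 2) with one sample left out. The number of genes excluding 2-fold was 10432 to 10902 with one sample left out and 8527 to 11462 otherwise, and that excluding 1.5-fold was 7571 to 8131 and 4629 to 9407, the lowest in females alone, which have 6 samples. The sex by IH interaction had 1 call by the likelihood ratio test (ENSRNOG00000006365) and 0 to 2 with one sample left out, the 2 being that gene and ENSRNOG00000005780 without Male Nx 2; both were named after their values were seen. Its count at an unadjusted p below 0.05 was 79 to 326 with one sample left out, and was highest without Female Nx 2. IH minus Nx in the library measures ranged, with one sample left out, from -222032 to 87011 total counts, from -0.545 to 0.562 percentage points outside genes, from -0.0118 to 0.0222 points ambiguous and from -1.58 to 0.754 points aligned to more than 1 place, where the last was above 0 without Male Nx 2; in the distance from the median library of the sex it ranged from -0.129 to -0.0627. Of 613 gene values, 596 moved by less than the spread between replicates, 15 moved further in the same direction and 2 moved further to the other sign, Cyp4f39 to 0.12 and Ptgs2 to 0.63 in males alone. Counting moves within the spread, 26 values of 9 genes had the other sign, among them Cd7 at 0.68 without Male Nx 2, Il1a at 0.16 without Male Nx 3, Mcpt1l1 at 0.49 in females alone and RGD1561143 at -0.20 in males alone. Il6 kept an unadjusted p below 0.05 in 12 of 12 fits with one sample left out (0.00743 to 0.0306) and in 14 of 16 others, and Cxcl10 in 5 of 12 and 10 of 16. The median interval was wider for genes below 1 CPM than at higher levels; depth itself was not varied.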

Other observations

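Other named genes varied widely between animals. RGD1561143, listed in RefSeq as Pilrb2, had 0 to 2.40 CPM in Male Nx 1, Female Nx 1, Female Nx 2 and Female IH 1. It had between 38.0 and 142 CPM in the other 8 samples, with a log2 fold change of 0.82 and an interval from -1.55 to 3.20. With one sample left out this value ranged from 0.47 without Female IH 2 to 1.62 without Male Nx 2. Cd7, a lymphoid surface protein, reached 43.0 CPM in the second male Nx sample, 23.0 CPM in the second male IH sample, and had 1.33 to 4.93 CPM in the other 10 samples. Its log2 fold change was -0.63, with an interval from -2.38 to 1.12, and was 0.68 without Male Nx 2 and -1.59 without Male IH 2. Mcpt1l1 had 8.33 to 30.5 CPM in Nx and 3.08 to 65.8 CPM in IH, with a log2 fold change of -0.24 and an interval from -1.44 to 0.97. In males its Nx samples had 13.9, 16.0 and 13.6 CPM and its IH samples 9.29, 3.08 and 8.67 CPM, without overlap. The log2 fold change was -1.06 in males alone, with an interval from -1.88 to -0.25 (unadjusted p = 0.016, edgeR adjusted p = 1), and 0.49 in females alone, and the difference between the sexes had an unadjusted p of 0.172 (edgeR adjusted p = 1). With one sample left out the pooled value ranged from -0.90 without Female IH 2 to 0.0041 without Male IH 2. The part of these cells in other results was not tested.

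The spread within the oxygen groups was also measured. The first principal component of the deviations from the group means held a share of 38% of the variance and ran from -49.7 to 56.5 in Nx and from -18.4 to 39.2 in IH. In a measure added after seeing the data, the distance of each library from the median library of its sex was 0.445 ± 0.112 (SD, n = 6) on the log2 scale in Nx and 0.347 ± 0.032 (SD, n = 6) in IH, with a two-sided exact permutation p of 0.065. With one sample left out the difference, IH minus Nx, ranged from -0.129 to -0.0627, and without Female Nx 3 it was -0.129 with an exact permutation p of 0.005, while the exact permutation p was 0.06 to 0.13 in the other 11 fits.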
